A study of Mus musculus and Homo sapiens with 18 samples.

Results

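The 10 genes described here are Atf4, Ddit3, Chac1, Trib3, Asns, Psat1, Phgdh, Shmt2, Xbp1 and Herpud1, a set of transcription factors and targets of the integrated stress response. They were taken by symbol from the 3 deposited count tables of RNA-seq libraries, in upper case for the human table. All 10 were in each table, out of 46882 genes in the mouse lens table, 54838 in the table of mouse NLPCs and 60880 in the HLE-B3 table. In each system, libraries in which Qk (QKI in human), the gene of an RNA-binding protein, had been targeted were compared with their controls, 3 libraries against 3. The lenses came from Ctrl mice with the genotype Nestin-CreERT2; QkL/+ and from Qk-iCKO mice with the genotype Nestin-CreERT2; QkL/L. Both carried the Cre recombinase that tamoxifen activates under the Nestin promoter, and both received tamoxifen on postnatal days 7 and 8. The floxed Qk allele has loxP sites around exon 2, the Ctrl lenses carried 1 copy of it, and lenses were taken on postnatal days 17 to 19. NLPCs are lens progenitor-like cells that were differentiated from neural stem cells with Noggin (100 ng/ml). Afterwards they received bFGF at the same concentration together with BMP4 and BMP7, each at 20 ng/ml. Their groups are labelled WT and Qk-/-. According to the study's methods, the neural stem cells came from brains of Nestin-CreERT2; QkL/L mice, and Qk was deleted in them with hydroxytamoxifen. The methods do not state whether the WT cells received this drug, and its part in the NLPC values was not tested. HLE-B3 is an immortalized human lens epithelial line, compared as WT and as QKI KO cells made with CRISPR-Cas9. In the methods, the KO cells were infected with lentivirus and then enriched by puromycin. Whether the WT cells received a virus or puromycin is not stated, and the part of these treatments in the HLE-B3 values was not tested. The study's methods give 3 mice per lens group and describe its cell work in general as biologically replicated. The labels do not tie the NLPC and HLE-B3 libraries to separate cultures, nor say whether the KO cells came from 1 clone, so the p-values of these cells measure the spread between the libraries, part of which may be technical.

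As background, the integrated stress response starts when kinases that sense amino acid shortage, double-stranded RNA, heme deficiency or misfolded protein in the endoplasmic reticulum (ER) phosphorylate the translation factor eIF2. Most translation then falls, while the mRNA of Atf4 is translated more, so the Atf4 protein can rise without a rise of its mRNA, which is what RNA-seq counts. Atf4 activates genes of amino acid uptake and synthesis and, under lasting stress, Ddit3 (CHOP), Trib3 and Chac1. Xbp1 and Herpud1 belong mainly to the unfolded protein response of the ER, which shares the kinase Perk (Eif2ak3) with the integrated stress response. In the lens, fibre cells make very large amounts of crystallin protein and lose their ER and other organelles as they mature.

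Atf4 is known to bind DNA together with C/EBP factors at a composite element whose core is written here as TGATGNAA, with N for any base. This core was searched on both strands in the RefSeq promoter windows of the mouse genome (GRCm38.p6), from 250 bases before to 50 bases after each start of transcription. It was found in 4 of the 10 genes, against 4.51% of the 27025 genes with a window. These were Chac1, Trib3, Asns and Herpud1. The 30 bases around the match are given for Chac1, Trib3 and Asns on the strand of the gene, 5′ to 3′, because these genes have the largest log2 fold changes in the lens beside Ddit3. Capitals mark the matched letters, which are the core itself in Asns and its reverse complement in Chac1 and Trib3.
Chac1, chr2:119351038-119351067, + strand: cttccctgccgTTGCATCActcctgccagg
Trib3, chr2:152344028-152344057, − strand: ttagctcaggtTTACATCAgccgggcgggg
Asns, chr6:7693214-7693243, − strand: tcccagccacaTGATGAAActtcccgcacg

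The match began 193 bases before the RefSeq start in Chac1, 23 bases before it in Asns, 112 bases before it in Herpud1 and 14 bases after it in Trib3. For the other 6 genes, Atf4, Ddit3, Psat1, Phgdh, Shmt2 and Xbp1, these letters were not in the window, which says nothing of sites elsewhere. The ER stress element ERSE-II, an element bound by the ATF6 and XBP1 factors, was present in the Herpud1 window, 52 bases before the start, and in 12 of all 27025 genes (0.0444%), and does not overlap the Atf4 core there. The longer element ERSE was in none of the 10 windows and in 0.137% of all genes. A match is a description of the sequence, and no binding was measured here.

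The lens libraries held between 10319320 and 16425331 counts, those of NLPCs between 28154202 and 68243360, and those of HLE-B3 cells between 69190864 and 81384471. Values are given as CPM, the count of a gene per 1e6 counts of its library after scaling of the library sizes by TMM, a scaling that assumes that most genes do not change. Lens Qk-iCKO 1 stood apart with a TMM factor of 1.48 (0.888 to 0.962 for the other 5). Replicate 2 of the NLPC libraries labelled Qk-/- had the fewest counts of its table, 28154202, at a TMM factor of 1.05. Qk itself had 121 ± 5.69 CPM (SD, n = 3) in Ctrl and 97.5 ± 9.71 CPM in Qk-iCKO lenses (log2 fold change −0.31, adjusted p = 0.2001 from edgeR's quasi-likelihood test with Benjamini-Hochberg adjustment, used throughout), and QKI fell from 261 ± 3.44 to 103 ± 2.53 CPM in QKI KO cells (log2 fold change −1.34, adjusted p = 1.85e-11). In the NLPCs, Qk counts were higher in the libraries labelled Qk-/- (2551 ± 117 against 3391 ± 281 CPM, log2 fold change 0.41, adjusted p = 0.0270). Counts over the whole gene do not resolve exon 2, so they do not check this deletion. The study examined it by staining and, in the NLPCs, by an immunoblot for the Qki-5 protein, neither analysed here. Directions in the NLPCs are those of the labels. The higher Qk count was called in 1 of 6 fits with a library left out, with adjusted p-values up to 0.173. Markers of lens fibre cells summed to between 266887 and 286374 CPM in Ctrl lenses and between 141176 and 245075 CPM in Qk-iCKO lenses. They were nearly absent from the NLPCs, at 1.48 to 2.33 CPM in WT and 0.674 to 3.91 CPM in the libraries labelled Qk-/-. Crybb2 was at or under a floor of 3 counts over all libraries of the system. The 5 lens epithelial markers summed to 143 to 154 CPM in WT NLPCs and to 96.7 to 120 CPM in those labelled Qk-/-. Among them, Foxe3 was at that floor, while Pax6 (83.0 CPM) and Cryab (64.7 CPM) were present in WT. Cryab was lower in the libraries labelled Qk-/- (log2 fold change −1.45, adjusted p = 0.0232). In HLE-B3 cells the fibre markers summed to 3.51 to 8.06 CPM, with BFSP2, LIM2, CRYAA and CRYBB2 at that floor.

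In the lens, Ddit3, Chac1 and Trib3 were higher in Qk-iCKO than in Ctrl lenses, and none of the 10 genes was lower at an adjusted p under 0.05. Ddit3 rose about 8-fold, while Chac1 and Trib3 went from 0 to 2 counts per Ctrl lens to between 16 and 225 counts per Qk-iCKO lens. Atf4, Asns, Xbp1, Herpud1 and Shmt2 lay above 0 on the log2 scale and the serine synthesis genes Psat1 and Phgdh below it, without passing the test. The 3 genes called higher compare with 8.38% of the 12201 genes tested that were called higher, and the 0 called lower with 3.88% called lower. At an unadjusted p under 0.05, edgeR put 6 higher (17.3% of all genes) and 1 lower (11.4%). DESeq2 called 5 higher (9.62% of the 14750 genes to which it gave an adjusted p) and 0 lower (4.37%). The groups did not overlap in 6 genes that lay higher (18.1% of all genes) and in 1 that lay lower (17.2% of all genes). The median log2 fold change of the 10 was 0.64, beside 0.0064 for all genes tested. Chac1 and Trib3 passed the filter on low counts only through the Qk-iCKO lenses.

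**Figure D1:**
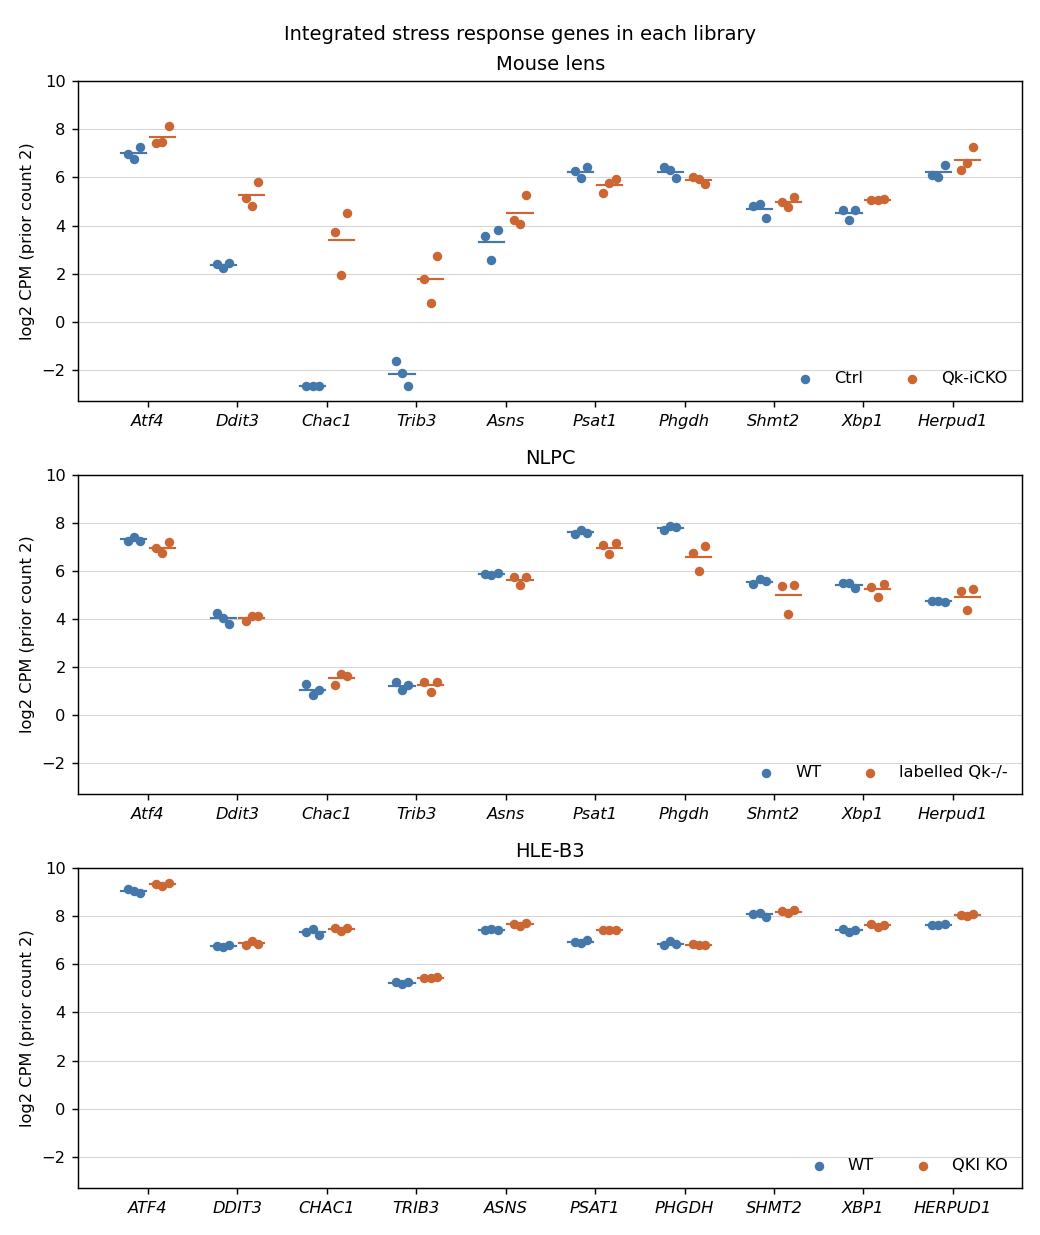
Level of each of the 10 genes in each of the 18 libraries, as log2 CPM with a prior count of 2, with 1 panel per system. Points are libraries, horizontal bars are group means (n = 3), and the clear separations in the lens panel are those of Ddit3, Chac1 and Trib3, while most groups in the HLE-B3 panel lie close to each other.

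Atf4, the transcription factor at the centre of the response, was at 126, 109 and 153 CPM in the Ctrl lenses and at 174, 179 and 285 CPM in the Qk-iCKO lenses. Every Qk-iCKO lens lay above every Ctrl lens, and lens 3 was the highest in each group. The log2 fold change was 0.72 (standard error 0.24), with an adjusted p of 0.100. Deviations of same-numbered lenses from their group means correlated at 0.133 to 0.523, but those of Ctrl lens 2 and Qk-iCKO lens 1 at 0.279. The pairing by number is therefore uncertain. A fit blocked on this number gave a log2 fold change of 0.69 and an adjusted p of 0.0359.

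Ddit3, which encodes CHOP, a factor that favours cell death when stress lasts, lies on chromosome 10 of GRCm38 (127290774 to 127296288, + strand). It was at 5.13, 4.56 and 5.28 CPM in the Ctrl lenses and at 35.3, 27.5 and 56.1 CPM in the Qk-iCKO lenses. The lowest Qk-iCKO lens was thus well above the highest Ctrl lens, and the Ctrl lenses were close together. On the log2 scale Ddit3 rose by 2.99 with a standard error of 0.28 (adjusted p = 0.00114). The value lay between 2.66 and 3.19 with each lens left out in turn and between 2.94 and 3.26 under 7 other settings, and passed the test in each. A second Ddit3 entry of the annotation used here overlaps the gene on the same strand, so that reads may have been left out as ambiguous and its level is uncertain.

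Trib3, a pseudokinase that Ddit3 and Atf4 induce and that restrains Akt signalling, lies on chromosome 2 (152337422 to 152344032, − strand). Its raw counts were 2, 1 and 0 in the Ctrl lenses and 54, 16 and 64 in the Qk-iCKO lenses, or 3.30, 1.55 and 6.45 CPM in the latter. Qk-iCKO lens 2 was the lowest of the 3 and lay far above each Ctrl lens. The ratio of the group sums, scaled to library size, was 49.6, with an exact 95% interval of 16.6 to 244 that covers counting error only (log2 fold change 5.49, standard error 0.84, adjusted p = 0.00746).

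Chac1 encodes an enzyme that degrades glutathione and lies on the same chromosome (119351229 to 119354381, + strand). No read was counted in any of the 3 Ctrl lenses, against 215, 38 and 225 in the Qk-iCKO lenses, or 13.1, 3.67 and 22.7 CPM. Lens 2 was again the lowest Qk-iCKO lens and lens 3 the highest, as for Trib3 and Ddit3. Against a floor of 3 counts over the Ctrl group, Chac1 was at least 177-fold higher (adjusted p = 0.0109). Under a filter that asked for 10 counts in each of the lenses, Chac1 and Trib3 were not tested, and Ddit3 was the 1 gene called.

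**Figure D2:**
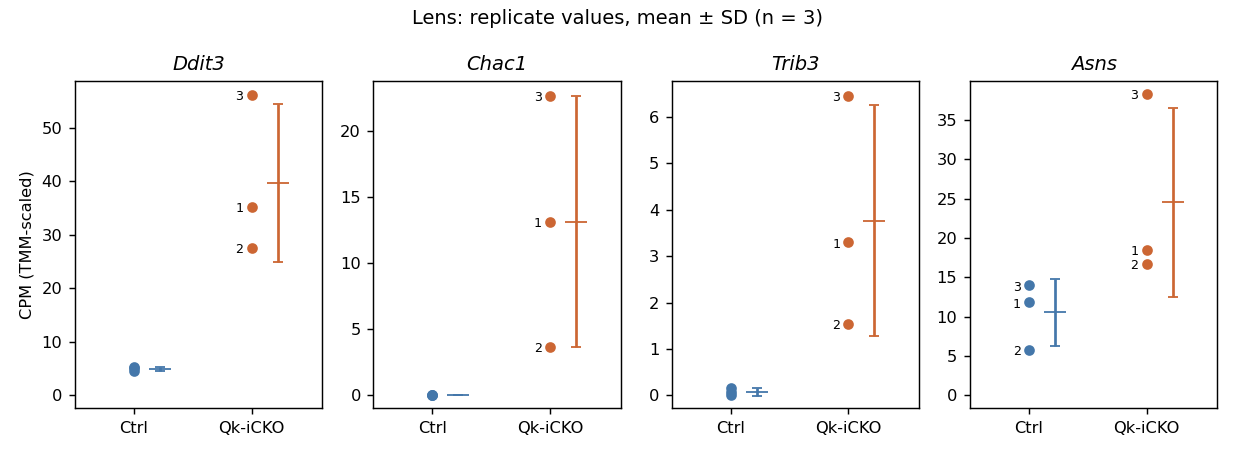
CPM of Ddit3, Chac1, Trib3 and Asns in the 3 Ctrl and 3 Qk-iCKO lenses, on linear axes that differ between genes, with replicate numbers beside separable points and the mean ± SD of each group beside them. In each of the 4 genes the Qk-iCKO lenses lie above the Ctrl lenses, with lens 3 the highest and lens 2 the lowest Qk-iCKO lens.

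Among the genes of amino acid synthesis, Asns, which makes asparagine, was at 11.8, 5.77 and 14.0 CPM in the Ctrl lenses and at 18.5, 16.7 and 38.3 CPM in the Qk-iCKO lenses. The groups did not overlap, but the spread within each was wide, and the log2 fold change of 1.22 (standard error 0.41) had an adjusted p of 0.104. With the replicate block it was 1.21 with an adjusted p of 0.0101. Psat1 and Phgdh, both enzymes of serine synthesis from glycolysis, lay the other way. Psat1 was at 76.7, 63.1 and 87.4 CPM in Ctrl lenses and at 41.2, 54.2 and 61.8 CPM in Qk-iCKO lenses, lower without overlap (log2 fold change −0.53, adjusted p = 0.129). Phgdh overlapped between the groups (76.3 ± 12.3 and 59.7 ± 6.52 CPM, SD, n = 3, adjusted p = 0.225), as did Shmt2, the mitochondrial enzyme that passes serine carbon to folate (26.0 ± 5.40 and 31.8 ± 4.43 CPM, adjusted p = 0.369).

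Of the ER stress genes, Xbp1, a transcription factor whose mRNA the sensor Ire1 splices, was at 25.1, 18.9 and 25.2 CPM in the Ctrl lenses and at 33.1, 33.2 and 33.9 CPM in the Qk-iCKO lenses. The Qk-iCKO lenses were nearly equal and all above the Ctrl lenses, with a log2 fold change of 0.54 and an adjusted p of 0.0618. Gene counts do not separate spliced from unspliced Xbp1. Herpud1, a membrane protein of ER-associated degradation, had 74.5 ± 14.4 CPM in Ctrl and 109.8 ± 38.3 CPM in Qk-iCKO lenses (SD, n = 3), with overlap between the groups (log2 fold change 0.56, adjusted p = 0.215).

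Markers of several other cell types moved with the lens groups. The 7 macrophage and leukocyte markers summed to 1.21 to 2.81 CPM in Ctrl lenses and to 60.9 to 77.7 CPM in Qk-iCKO lenses, with 6 of the 6 tested called higher and none at or under the floor in both groups. The 4 endothelial markers summed to 3.64 to 6.92 and 10.8 to 21.6 CPM, with 2 called higher. The 5 fibroblast markers summed to 62.5 to 78.3 and 101 to 170.6 CPM, without overlap and with none called. The 4 pigment cell markers summed to 1.78 to 3.70 and 4.54 to 107 CPM, also without overlap and with none called. The 5 photoreceptor markers varied widely between lenses, from 1.92 to 526 CPM in Ctrl and from 12.8 to 77.2 CPM in Qk-iCKO lenses, with none called. The 6 neural stem cell and astrocyte markers summed to 46.0 to 59.1 and 59.8 to 98.8 CPM. Of these only Nes, the gene whose promoter drives the Cre here, was called (higher, log2 fold change 2.19, adjusted p = 0.00871). Of the 7 fibre cell markers tested only the channel Mip was called (lower, −1.69, adjusted p = 0.0259). Whole lenses were measured, so that RNA from such cells, and fewer cells of a type or less RNA per cell, cannot be told apart from a change within lens cells, and the part of these cells in the values of Ddit3, Trib3 and Chac1 was not tested. Counts of 4 Y-linked genes were 0, 0 and 3 in the Ctrl lenses and 1, 1051 and 930 in Qk-iCKO lenses 1, 2 and 3. High Y-linked counts were thus seen in Qk-iCKO lenses 2 and 3 alone, so sex is confounded in part with the deletion. Qk-iCKO lens 1, with as few Y-linked counts as the Ctrl lenses, had 35.3 CPM of Ddit3, 215 counts of Chac1 and 54 of Trib3. The Ctrl lenses had at most 5.28 CPM, 0 counts and 2 counts in that order. The part of sex in the values, those of Ddit3, Chac1 and Trib3 included, was not tested. These 3 genes were called higher with each of the 6 lenses left out in turn.

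In the NLPCs, Psat1 and Phgdh were lower in the libraries labelled Qk-/- and no gene of the 10 was higher. The groups overlapped in Ddit3, Chac1 and Trib3. The 2 genes called lower compare with 5.96% of the 20371 genes tested that were called lower, and the 0 called higher with 4.74% called higher. At an unadjusted p under 0.05, edgeR put 3 lower (14.0% of all genes) and 0 higher (12.4%). DESeq2 called 2 lower (7.42% of 24184 genes) and 0 higher (8.40%). The groups did not overlap in 5 genes that lay lower (19.4% of all genes), namely Atf4, Asns, Psat1, Phgdh and Shmt2, and in 0 that lay higher (15.8% of all genes). The median log2 fold change was −0.20, beside 0.040 for all genes.

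Phgdh, which catalyses the first step of serine synthesis, was at 209, 233 and 227 CPM in WT and at 107, 63.9 and 129.7 CPM in the libraries labelled Qk-/-. The highest library labelled Qk-/- was far below the lowest WT library, and replicate 2 was the lowest. On the log2 scale Phgdh fell by 1.15 with a standard error of 0.22 (adjusted p = 0.0164). Psat1, which acts in the next step, was at 186, 209 and 190.1 CPM in WT and at 134, 103 and 142 CPM in the libraries labelled Qk-/- (log2 fold change −0.62, standard error 0.13, adjusted p = 0.0196). Both remained below 0 with each library left out in turn, from −1.40 to −0.91 for Phgdh and from −0.73 to −0.49 for Psat1. Both lost the call without any one of the 3 WT libraries or without replicate 1 labelled Qk-/-, with adjusted p-values up to 0.0929 for Phgdh and 0.108 for Psat1.

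Atf4 was at 153, 172 and 152 CPM in WT NLPCs and at 124, 108 and 145 CPM in the libraries labelled Qk-/-, lower in each of these without passing the test (log2 fold change −0.34, adjusted p = 0.115). Asns (58.7 ± 1.79 and 49.4 ± 6.32 CPM, SD, n = 3) had an adjusted p of 0.210, and Shmt2 (47.0 ± 3.34 and 34.0 ± 13.7 CPM) one of 0.333. Replicate 2 labelled Qk-/- was the lowest library for Atf4, Asns, Psat1, Phgdh, Shmt2, Xbp1, Trib3 and Herpud1. Without it, Herpud1, which went from 26.8 ± 0.361 to 31.5 ± 9.59 CPM with it (log2 fold change 0.24, adjusted p = 0.512), was called higher, with a log2 fold change of 0.47 and an adjusted p of 0.00617.

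None of the genes that rose in the lens passed the test in the NLPCs. Ddit3 was at 18.96, 16.4 and 13.8 CPM in WT and at 14.98, 17.4 and 17.2 CPM in the libraries labelled Qk-/-, Chac1 at 2.43, 1.75 and 2.02 and at 2.38, 3.26 and 3.08 CPM, and Trib3 at 2.54, 2.01 and 2.39 and at 2.55, 1.90 and 2.595 CPM. Each overlapped between the groups, with log2 fold changes of 0.015, 0.49 and 0.026 in that order and adjusted p-values of 0.961, 0.317 and 0.965. Markers of neural stem cells and astrocytes summed to between 4904 and 5408 CPM in WT and to between 3174 and 3653 CPM in the libraries labelled Qk-/-, with 3 called lower and 1 higher, and their part in the lower Psat1 and Phgdh was not tested.

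In HLE-B3 cells, 6 of the 10 genes were higher in QKI KO cells, by at most 1.42-fold, and none was lower. They were the factors ATF4 and XBP1, TRIB3, the amino acid genes ASNS and PSAT1, and HERPUD1. The 6 compare with 17.0% of the 19049 genes tested that were called higher, and the 0 called lower with 16.3% called lower. At an unadjusted p under 0.05, edgeR put 6 higher (20.8% of all genes) and 0 lower (20.6%). DESeq2 called 6 higher (15.3% of 21812 genes) and 0 lower (14.3%). The groups did not overlap in 7 genes that lay higher (22.0% of all genes) and in 0 that lay lower (22.6% of all genes). The median log2 fold change was 0.21, beside −0.020 for all genes.

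PSAT1 was at 122, 117 and 128 CPM in WT and at 172, 174 and 174 CPM in QKI KO cells, and the KO libraries were nearly equal (log2 fold change 0.50, standard error 0.057, adjusted p = 3.35e-06). HERPUD1 went from 200.2, 197 and 204 CPM to 265, 258 and 273 CPM (log2 fold change 0.41, standard error 0.052, adjusted p = 1.32e-05). ATF4 was at 559.8, 535 and 494 CPM in WT and at 652, 607 and 676 CPM in QKI KO cells (log2 fold change 0.28, standard error 0.058, adjusted p = 0.00104). In these 3 genes every KO library lay above every WT library.

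ASNS was at 173, 175 and 171 CPM in WT and at 205, 196 and 211 CPM in QKI KO cells (log2 fold change 0.24, adjusted p = 0.00280). The 50 tested genes nearest to ASNS had a median log2 fold change of 0.26, so that ASNS less this median was −0.029. For the other 5 genes called, the local median was below 0, between −0.18 for XBP1 and −0.029 for PSAT1, and the values less this median were 0.29 to 0.54. XBP1 (179, 161 and 169.7 CPM against 204, 187 and 200.4 CPM) had a log2 fold change of 0.21 and an adjusted p of 0.0107, and of 0.0697 without KO replicate 1.

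TRIB3, at 39.0, 36.4 and 38.1 CPM in WT and at 43.1, 43.1 and 44.7 CPM in QKI KO cells, had a log2 fold change of 0.21 and an adjusted p of 0.0249. Its groups did not overlap, but the call was lost with scaling to total counts alone (adjusted p = 0.0916) and without WT replicate 2, KO replicate 1 or KO replicate 3 (adjusted p-values up to 0.0935). DDIT3 (108 ± 2.89 and 117 ± 7.22 CPM, SD, n = 3) and CHAC1 (164 ± 13.9 and 177 ± 9.26 CPM), which rose in the lens, had adjusted p-values of 0.170 and 0.238. Neither did SHMT2 (269 ± 14.5 and 293 ± 14.0 CPM, adjusted p = 0.130) or PHGDH (117 ± 7.72 and 113 ± 1.03 CPM, adjusted p = 0.572) pass. Other entries of the GENCODE models used here for lengths overlap DDIT3, ASNS and HERPUD1 on the same strand. The entry over ASNS was not found among the deposited HLE-B3 counts, and that over DDIT3 was there with 0 counts. Reads of DDIT3 and HERPUD1 may thus have been left out, and the levels of these 2 genes are uncertain.

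**Figure D3:**
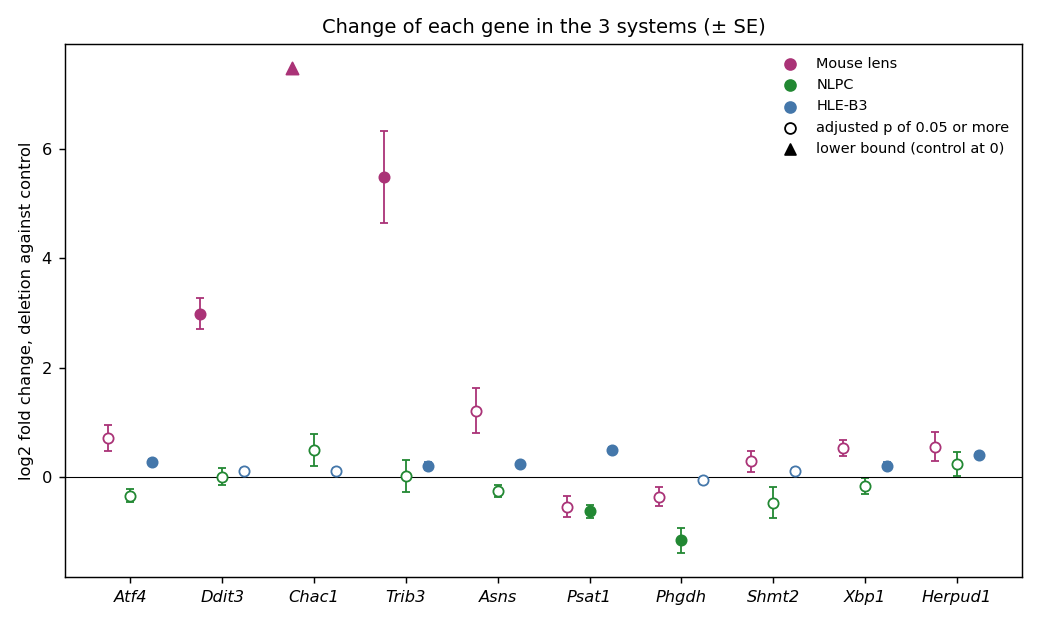
Log2 fold change (± SE) of each gene between deletion and control libraries in the lens, the NLPCs and HLE-B3 cells, with filled points at an adjusted p under 0.05 and a triangle at the lower bound for Chac1 in the lens. Ddit3, Chac1 and Trib3 stand out in the lens, Psat1 and Phgdh lie below 0 in both mouse systems, and the values of HLE-B3 cells lie between −0.053 and 0.50.

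Whether a change differed between systems was tested as an interaction in joint fits of each pair of systems, over the genes tested in both. Between lens and NLPC the change differed in 4 of the 10 genes (13.1% of 11226 genes), Atf4, Ddit3, Chac1 and Trib3, each with a lower value in the NLPCs. The difference was −2.87 for Ddit3 (standard error 0.34, adjusted p = 0.000293) and −5.52 for Trib3 (standard error 0.90, adjusted p = 0.00210). For Atf4 it was −0.96 (adjusted p = 0.0397), and the adjusted p was 0.0522 with RLE size factors. Leaving out single libraries gave Atf4 differences between −1.10 and −0.69, past the threshold in 4 of 12 fits. For Chac1, which had 0 counts in the Ctrl lenses, the fitted size depends on the prior count and is no bound (adjusted p = 0.00172).

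Between lens and HLE-B3 cells the change differed in 4 genes (31.5% of 9642 genes), Ddit3, Chac1, Trib3 and Psat1. The difference was −2.88 for Ddit3 (adjusted p = 2.87e-05), −5.44 for Trib3 (adjusted p = 0.000378) and 1.02 for Psat1 (adjusted p = 0.00334), which lay below 0 in the lens and rose in HLE-B3 cells. Between NLPC and HLE-B3 cells it differed in 4 genes (34.3% of 11224 genes), Atf4, Asns, Psat1 and Phgdh, each with a higher value in HLE-B3 cells. The differences were 0.58, 0.44, 1.09 and 1.06 in that order, with adjusted p-values of 0.00390, 0.00718, 6.60e-05 and 0.00449. The systems also differ in species, culture and depth, which cannot be told apart from the tissue in these tests.

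Levels were compared between genes per length, as CPM per kilobase of merged exons. Atf4 was the most abundant of the 10 in Ctrl lenses (54.9 ± 9.47, SD, n = 3), followed by Herpud1 (31.9 ± 6.19) and Phgdh (30.7 ± 4.94), whose ranges overlapped. Ddit3 was 8th of the 10 in Ctrl lenses at 2.91 ± 0.223 and 4th in Qk-iCKO lenses at 23.1 ± 8.64 CPM per kilobase, where its range overlapped that of Phgdh. Trib3 and Chac1 were the lowest of the 10 in Ctrl lenses and in WT NLPCs, where they were at 1.09 ± 0.1298 and 1.26 ± 0.209 CPM per kilobase and overlapped. In WT NLPCs Phgdh (89.7 ± 5.05) lay above Atf4 (67.5 ± 4.65) without overlap, whereas in the libraries labelled Qk-/- their ranges overlapped (40.3 ± 13.4 and 53.3 ± 7.85). In WT HLE-B3 cells ATF4 (203 ± 12.7) was followed by DDIT3 (82.6 ± 2.21) and CHAC1 (79.8 ± 6.77), which overlapped each other. PHGDH (12.7 ± 0.840) and TRIB3 (11.5 ± 0.396 CPM per kilobase) were the lowest. The place of PHGDH depends on its merged exons, which span 9187 bases in the human model and 2486 in the mouse model. Without division by length, PHGDH was at 117 CPM in these cells, beside 122 CPM for PSAT1 and 37.8 CPM for TRIB3.

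Beyond the 10 genes, 90 other genes of the pathway were read from the same fits in 7 lists. In the lens, 16 of those tested were higher (8.38% of all genes) and 1 was lower (3.88%). In the NLPCs 4 were higher (4.74%) and 21 lower (5.96%), and in HLE-B3 cells 32 were higher (17.0%) and 8 lower (16.3%). Of the lists named, those of ATF4 partners and of ER chaperones held most of the higher genes in the lens and in HLE-B3 cells. They are also the largest lists, with 17 and 22 of the 90 genes. Adjusted p-values are over all genes of each table. The same shares of all genes called stand beside the counts of each list below. Counts near these shares are no result about a list. Examples are 1 of 12 eIF2 genes higher in the lens and 2 of 13 tRNA genes in each direction in HLE-B3 cells.

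**Figure D4:**
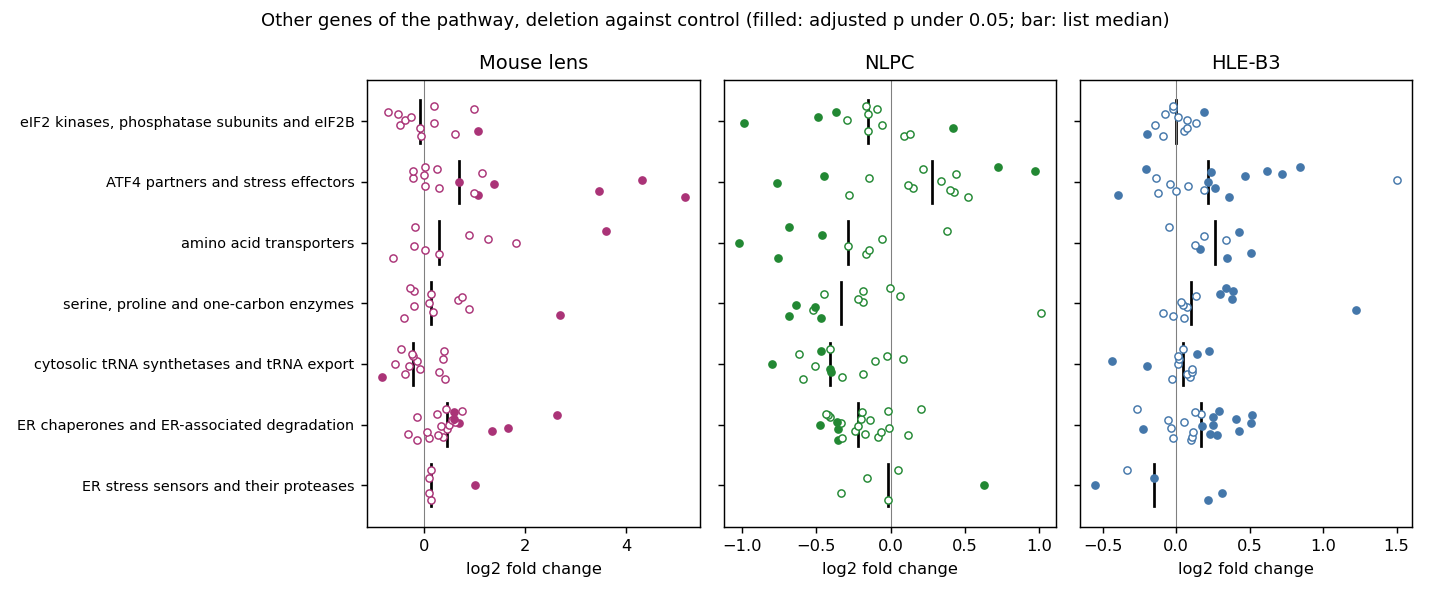
Log2 fold change of each tested gene of the 7 other lists in each system, on axes that differ between systems, with filled points at an adjusted p under 0.05 and black bars at list medians. In the lens a few genes of the ATF4 partners, transporters and one-carbon enzymes lie far above 0, up to 5.15 for Atf3, and in the NLPCs the medians of 6 of the 7 lists lie below 0.

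The ATF4 partners and stress effectors had 6 of 15 tested genes higher and 0 lower in the lens, with a median log2 fold change of 0.69. Atf3, a stress-induced transcription factor, went from 0.468 ± 0.355 to 16.9 ± 11.1 CPM (SD, n = 3, log2 fold change 5.15, adjusted p = 0.00485), and Gdf15, a secreted stress hormone, from 0.306 ± 0.181 to 6.13 ± 1.37 CPM (log2 fold change 4.31, adjusted p = 0.00134). In the NLPCs 2 of 14 were higher and 2 lower (median 0.28). Stc2, a secreted glycoprotein (log2 fold change 0.97), and Vldlr, a lipoprotein receptor (0.72), were the higher ones, and Nupr1, a small chromatin-associated stress protein (−0.45), and Eif4ebp1, an inhibitor of cap-dependent translation (−0.76), the lower ones. In HLE-B3 cells 8 of 17 were higher and 2 lower (median 0.22). VLDLR (0.84) and NUPR1 (0.72) rose most, and ATF3 fell from 635 ± 15.8 to 484 ± 17.1 CPM (log2 fold change −0.39, adjusted p = 1.14e-05), as did TNFRSF10B, a death receptor (−0.20).

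Among the eIF2 kinases, phosphatase subunits and eIF2B, 1 of 12 was higher in the lens and 0 lower (median −0.080). It was Eif2ak3, which encodes Perk, from 3.92 ± 0.552 to 8.15 ± 2.15 CPM (SD, n = 3, log2 fold change 1.06, adjusted p = 0.0294). In the NLPCs 1 of 12 was higher and 3 were lower (median −0.16), with log2 fold changes of 0.42 for Eif2ak4, which encodes the amino acid sensor Gcn2, and of −0.49 and −0.98 for the eIF2B subunits Eif2b4 and Eif2b2. In HLE-B3 cells 1 was higher, the eIF2 subunit EIF2S1 (0.19), and 1 lower (median −0.0038), EIF2AK2 (−0.20), the sensor of double-stranded RNA, whose groups overlapped and which was named after its value was seen.

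The amino acid transporters had 1 of 9 genes higher and 0 lower in the lens (median 0.29), Slc7a3, a carrier of cationic amino acids, from 0.174 ± 0.178 to 2.23 ± 0.753 CPM (SD, n = 3, log2 fold change 3.60, adjusted p = 0.0176). In the NLPCs 0 of 9 were higher and 4 were lower (median −0.29), among them Slc6a9, a glycine carrier (−1.02), and Slc1a4, a carrier of neutral amino acids (−0.76). In HLE-B3 cells 4 of 8 were higher and 0 lower (median 0.26), with SLC1A5, a glutamine carrier, at 0.51 and SLC7A11, the cystine carrier, at 0.42.

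Of the serine, proline and one-carbon enzymes, 1 of 11 was higher in the lens and 0 lower (median 0.13). Aldh1l2, a mitochondrial folate enzyme, went from 0.961 ± 0.331 to 6.32 ± 3.92 CPM (SD, n = 3, log2 fold change 2.68, adjusted p = 0.0185). In the NLPCs the same gene fell from 120.5 ± 1.94 to 75.0 ± 9.27 CPM (log2 fold change −0.68, adjusted p = 0.00583), and 4 of 12 were lower and 0 higher (median −0.33), with the folate enzyme Mthfd1 at −0.64. In HLE-B3 cells 5 of 12 were higher and 0 lower (median 0.10). CTH, which makes cysteine from cystathionine, rose from 21.5 ± 0.546 to 50.1 ± 4.39 CPM (log2 fold change 1.22, adjusted p = 4.82e-09), and PYCR1, an enzyme of proline synthesis, lay at 0.38.

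Cytosolic tRNA synthetases and the tRNA exporter had 0 of 13 higher and 1 lower in the lens (median −0.23), the cysteine enzyme Cars from 43.1 ± 2.63 to 24.2 ± 5.30 CPM (SD, n = 3, log2 fold change −0.83, adjusted p = 0.0243). In the NLPCs 4 of 13 were lower and 0 higher (median −0.41), with the methionine enzyme Mars at −0.80 and the exporter Xpot at −0.47. In HLE-B3 cells 2 were higher and 2 lower (median 0.046), XPOT (0.23), WARS (0.14), LARS (−0.20) and NARS (−0.44).

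ER chaperones and genes of ER-associated degradation had 6 of 21 tested genes higher and 0 lower in the lens (median 0.45). Sdf2l1, an ER-resident partner of chaperones, went from 1.03 ± 0.579 to 6.46 ± 1.47 CPM (SD, n = 3, log2 fold change 2.62, adjusted p = 0.00911) and Edem1, which directs misfolded glycoproteins to degradation, from 3.94 ± 0.942 to 12.4 ± 3.47 CPM (log2 fold change 1.65, adjusted p = 0.00925). In the NLPCs 4 of 21 were lower and 0 higher (median −0.22), among them Hspa5, the main ER chaperone (−0.48), and Manf, a secreted ER stress protein (−0.36). In HLE-B3 cells 10 of 21 were higher and 1 lower (median 0.17), with SDF2L1 at 0.52, the chaperone HYOU1 at 0.51 and the co-chaperone DNAJC3 at −0.22.

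Of the 5 ER stress sensors and their proteases, Ern1, which encodes Ire1, was higher in the lens (log2 fold change 1.00, adjusted p = 0.0493; list median 0.13) and in the NLPCs (0.63, adjusted p = 0.0236; list median −0.021), with 0 lower in both. In HLE-B3 cells ERN1 fell from 42.2 ± 2.15 to 28.8 ± 2.31 CPM (SD, n = 3, log2 fold change −0.55, adjusted p = 3.47e-05), the protease MBTPS1 was also lower (−0.15), and ATF6B (0.31) and ATF6 (0.21) were higher (list median −0.15). In the lens, Atf3, Gdf15, Slc7a3, Aldh1l2 and Sdf2l1 passed the filter on low counts only because of the Qk-iCKO lenses. Of the 9 other genes named in the lens, 3 kept the call with every lens left out in turn, namely Atf3, Gdf15 and Sdf2l1, and in the NLPCs 2 of 16 did, Eif2b2 and Vldlr. In HLE-B3 cells 14 of 20 did. With the replicate block, Ern1 in the lens and Eif2ak4, Eif2b4, Eif4ebp1 and Manf in the NLPCs lost the call. The lists were drawn up with earlier results of these data known.

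Across the 12 mouse libraries, after the mean of each table was subtracted, most of the 10 genes correlated with the mean log2 CPM of the others. The correlation of a gene with the mean of the others was 0.94 for Trib3 and Ddit3, 0.88 for Atf4, 0.86 for Asns, 0.85 for Chac1, 0.84 for Xbp1 and 0.66 for Herpud1. It was 0.45 for Shmt2, −0.13 for Phgdh and −0.33 for Psat1. The genes were not scaled before averaging, so those with large changes in the lens, such as Chac1, weigh most. Within the NLPCs they did not all run together. Replicate 2 labelled Qk-/- was the lowest library for Atf4 (108 CPM) and Asns (42.1 CPM) but the highest for Chac1 (3.26 CPM). Among 11216 other genes, those most like the mean profile of the 10 were Pla2g15, a lysosomal phospholipase (Pearson's r = 0.97), Cd9, Srxn1, Emp1 and Copa (each 0.96). Within the lens alone, r lay between 0.97 (Pla2g15) and 0.98 (Emp1). Within the NLPCs alone, it was 0.99 for Pla2g15, 0.92 for Srxn1, 0.78 for Cd9, 0.75 for Copa and 0.62 for Emp1. The group means were not subtracted, so the difference between deletion and control libraries is contained in all these correlations. Its part in them was not tested. These correlations also share the libraries and their depth and are given as a description.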

How the data were processed

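RNA was extracted with RNeasy columns and DNase and sequenced from TruSeq stranded libraries. The authors deposited unnormalised gene counts, made with 2-pass STAR 2.6.1b alignment to mm10 or hg19 and HTSeq 0.11.0. HISAT2 2.0.4 and featureCounts are also named in the submitters' processing notes, without a role. The annotation release is not given in the sources used here.

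From these counts, each system was fitted alone with edgeR 4.0.16 in R 4.3.3, 3 libraries against 3: filterByExpr (minimum count 10, total 15), TMM scaling, the quasi-likelihood test and Benjamini-Hochberg adjustment over all genes tested, with calls at 0.05. The script was tested on simulated data. An exact permutation test of 3 against 3 cannot go below p = 0.1, so none is given. The differences between systems are interaction terms of joint fits. A group with no counts was set to a floor of 3 counts over the group. Intervals and the floor cover counting error only. Lengths are merged exons of GENCODE models on GRCm38 and GRCh37.

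The members and lists were chosen with earlier results of these data known. All members are described. From each list and system the text names the 2 highest and the 2 lowest log2 fold changes among calls whose groups do not overlap, together with the 5 genes most like the mean profile over the mouse libraries. Deviations from the group mean of same-numbered libraries correlated at 0.233, 0.133 and 0.523 in the lens and at 0.123, 0.320 and 0.145 in the NLPCs, which were taken as paired by the numbers in the labels, and at 0.061, 0.057 and −0.050 in HLE-B3 cells, which were not. Libraries of different number reached 0.279 in the lens (Ctrl 2 with Qk-iCKO 1). In the NLPCs they reached 0.232 (WT 1 with replicate 3 labelled Qk-/-). The pairing is thus uncertain. Alternatives were RLE size factors, total counts alone, 2 other filters, DESeq2 1.42.0, the replicate block, TMM without crystallins (lens), local medians (HLE-B3) and each library left out.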

Additional observations from a re-analysis of the deposited data

Results flagged for a closer look

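The change between deletion and control libraries differed between systems for these genes, each by the interaction term of edgeR's joint fit, given as the log2 fold change in the second system less that in the first. From lens to NLPC it was −0.96 for Atf4 (adjusted p = 0.0397), −2.87 for Ddit3 (0.000293), −5.52 for Trib3 (0.00210) and −12.7 for Chac1 (0.00172). From lens to HLE-B3 it was −2.88 for Ddit3 (adjusted p = 2.87e-05), −5.44 for Trib3 (0.000378), −13.5 for Chac1 (0.000515) and 1.02 for Psat1 (0.00334). From NLPC to HLE-B3 it was 0.58 for Atf4 (adjusted p = 0.00390), 0.44 for Asns (0.00718), 1.09 for Psat1 (6.60e-05) and 1.06 for Phgdh (0.00449). The Chac1 values rest on 0 counts in the Ctrl lenses and depend on the prior count. The 50 tested genes nearest to ASNS in HLE-B3 cells had a median log2 fold change of 0.26.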

How the results depend on the processing

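In the lens, the count of the 10 genes called higher was 5 with a filter of at least 1 count, with DESeq2 and with the replicate block, and 1 with at least 10 counts in every library, against 3. Other pathway genes called lower there were 0 with total counts alone, 2 with at least 1 count and with DESeq2 and 3 with the block, against 1, and 10 were higher with at least 10 counts in every library, against 16. Over all genes in the lens, 116 were lower with total counts alone, 1904 higher with at least 1 count and 610 higher with at least 10 counts in every library. In the NLPCs, 8 other pathway genes were lower with total counts alone, and over all genes 1452 were higher with at least 1 count and 2032 with DESeq2. With total counts alone 7 genes, not 4, differed between lens and HLE-B3 cells. The median log2 fold change of all genes moved to 0.29 in the lens with total counts alone and to 0.25 in the NLPCs with DESeq2. Directions turned for Ddit3 in the NLPCs with at least 1 count (−0.014), for ASNS (−0.029) and PHGDH (0.16) in HLE-B3 cells less the local median, and for the lens to NLPC difference of Psat1 with total counts alone (−0.21); the cause was not tested.

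With each library left out in turn, genes of the 10 called ranged from 3 to 3 higher and 0 to 0 lower in the lens, 0 to 1 higher and 0 to 2 lower in the NLPCs and 4 to 6 higher in HLE-B3 cells. Other pathway genes ranged from 4 to 16 higher and 0 to 2 lower in the lens (4, 6 and 7 higher without Ctrl 1, 2 and 3), from 1 to 7 higher and 2 to 29 lower in the NLPCs (29 without replicate 2 labelled Qk-/-) and from 27 to 32 higher and 5 to 8 lower in HLE-B3 cells. All genes ranged from 437 to 1298 higher and 144 to 479 lower in the lens and from 344 to 1728 higher and 337 to 2069 lower in the NLPCs. Log2 fold changes that turned ranged from −0.11 to 0.12 for Ddit3 and −0.078 to 0.16 for Trib3 in the NLPCs and from −0.069 to 0.012 for PHGDH in HLE-B3 cells. Differences that turned ranged from −0.12 to 0.14 for Psat1 and −0.41 to 0.083 for Herpud1 from lens to NLPC, from −0.34 to 0.15 for Herpud1 from lens to HLE-B3, and from −0.065 to 0.18 for Ddit3 and −0.097 to 0.27 for Herpud1 from NLPC to HLE-B3. With the replicate block, the 10 genes had 0 higher and 2 lower in the NLPCs and 5 higher in HLE-B3 cells, where the numbers do not pair the libraries and TRIB3 had an adjusted p of 0.0540. Trib3 and Chac1 in the lens rest on few Ctrl counts, so their depth limits the size of the fold change.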
